A study of Rattus norvegicus with 12 samples.

Results

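The genes described here are 10 intermediate filament genes of the rat, chosen by name from a table of 33294 genes: Vim, Des, Nes, Synm, Krt7, Krt8, Krt18, Krt19, Lmna and Lmnb1. The rule that picks them uses their names and no measured value, but the list was chosen with earlier results of these data known. They were followed in poly(A) RNA-seq libraries of PAC1, a rat pulmonary artery smooth muscle cell line that can be kept in a more differentiated (PAC1-D) or a more proliferative (PAC1-P) state through how often and how thinly it is passaged. The study asked how RNA-binding proteins hold the differentiated state, and the comparisons here ask which intermediate filament genes differed with the state and with loss of those proteins.

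The 4 groups held 3 libraries each. D1 was PAC1-D with a control siRNA, and P was PAC1-P with the same kind of control siRNA. RBPMS KD1 was PAC1-D with siRNA against RBPMS, an RNA-binding protein that is abundant in differentiated smooth muscle and regulates splicing. MBNL KD was PAC1-D with siRNAs against MBNL1 and MBNL2, the muscleblind-like splicing regulators. All 4 groups were thus transfected, with 90 pmol of siRNA and a second transfection of the same kind. All came from 1 cell line, so the values describe these cultures and not several donors.

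Libraries held between 80842635 and 90771289 counts, with MBNL KD replicate 3 the smallest. That library also stood further from its partners than any other pair of replicates did (chi-square per degree of freedom 12.8, against 3.68 to 7.7 elsewhere), and results of MBNL KD were repeated without it. Rbpms in RBPMS KD1 was at 24.7% to 25.5% of the D1 mean, Mbnl1 in MBNL KD at 23.6% to 24.1%, and Mbnl2 there at 29.1% to 30.1%. All 6 smooth muscle markers (Myh11, Acta2, Cnn1, Tagln, Smtn and Myocd) were above the floor of 3 counts in every group. Their summed scaled count ran from 780749 to 819885 in D1, 15647 to 16545 in P, 394945 to 409793 in RBPMS KD1 and 627731 to 636242 in MBNL KD. In bulk RNA, fewer cells of a type and less RNA per cell cannot be told apart.

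Intermediate filaments are rope-like polymers of coiled-coil proteins that give cells and nuclei their resistance to stretch. Vimentin (Vim) is the type III protein of mesenchymal cells and desmin (Des) that of muscle, while nestin (Nes) and synemin (Synm) are large proteins that join vimentin or desmin filaments. Keratins form obligate pairs of a type II chain (Krt7, Krt8) and a type I chain (Krt18, Krt19) and are typical of simple epithelia, and the lamins (Lmna, Lmnb1) line the inner nuclear membrane. Vascular smooth muscle contains vimentin and desmin in proportions that vary with the vessel and with the state of the cells.

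Promoter sequence was on hand for 8 of the 10 genes, from RefSeq on the GRCr8 assembly, and 4 sequences are shown. Des and Synm were picked because they moved beyond 2-fold in opposite directions in MBNL KD. Krt8 and Krt18 were picked because these neighbouring genes encode filament partners yet had very unequal counts. Each runs 5′ to 3′ on the strand of the gene and covers the 250 bases before the annotated start. Capitals mark matches, on either strand, to TATAAA (the TATA box), CCAAT or GGGCGG (the GC box). Des lies on the plus strand at chr9:84299376-84299625, Synm on the minus strand at chr1:130773825-130774074, Krt8 on the minus strand at chr7:135010340-135010589 and Krt18 on the plus strand at chr7:135035918-135036167.
Des: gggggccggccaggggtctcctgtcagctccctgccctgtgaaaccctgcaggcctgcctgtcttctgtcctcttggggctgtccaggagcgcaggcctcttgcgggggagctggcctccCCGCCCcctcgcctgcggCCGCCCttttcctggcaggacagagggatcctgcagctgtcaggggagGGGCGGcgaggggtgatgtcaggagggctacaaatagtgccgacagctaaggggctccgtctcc
Synm: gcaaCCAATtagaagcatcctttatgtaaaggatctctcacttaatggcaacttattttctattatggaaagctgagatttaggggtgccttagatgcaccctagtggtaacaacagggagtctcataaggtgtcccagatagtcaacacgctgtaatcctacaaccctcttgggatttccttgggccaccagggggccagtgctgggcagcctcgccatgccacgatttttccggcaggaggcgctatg
Krt8: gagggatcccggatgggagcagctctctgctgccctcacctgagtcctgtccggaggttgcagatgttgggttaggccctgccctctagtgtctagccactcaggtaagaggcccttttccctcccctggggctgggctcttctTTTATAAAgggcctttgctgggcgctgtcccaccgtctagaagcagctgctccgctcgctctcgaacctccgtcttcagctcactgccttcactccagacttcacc
Krt18: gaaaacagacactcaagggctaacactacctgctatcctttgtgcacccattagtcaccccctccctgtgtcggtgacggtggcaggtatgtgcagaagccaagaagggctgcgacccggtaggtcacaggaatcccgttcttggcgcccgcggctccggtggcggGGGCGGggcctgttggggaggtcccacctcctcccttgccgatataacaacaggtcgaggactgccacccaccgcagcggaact
Des held 3 GC box matches, beginning 130, 112 and 64 bases before the start, and Krt18 held 1 at 84 bases. Krt8 held TATAAA at 104 bases, overlapping a match on the opposite strand at 106 bases, and Synm held 1 CCAAT at 246 bases. Of 33469 promoters of the same length, 30.5% held GGGCGG, 12.9% TATAAA and 34.0% CCAAT, so each of these matches is common. TGANTCA (the AP-1 motif, in 6.34% of promoters) and the CArG box of serum response factor (in 1.5%) had no match in the windows of the 8 genes, which says only that those letters are not in these 250 bases.

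Counts were compared with edgeR's quasi-likelihood test, fitted on all genes that passed a filter on low counts, with Benjamini-Hochberg adjustment over all of them. A gene is said to rise or fall where its adjusted p was under 0.05, and to change beyond 2-fold where its log2 fold change was also above 1 or below -1. Levels are scaled counts, that is counts divided by a library's effective size (TMM) relative to the 12 libraries, given as mean ± SD over 3 libraries. They are not corrected for transcript length, so levels of different genes cannot be ranked by them. Of the 10 genes, 8 were tested in every comparison, and Krt18 and Krt19 fell below the filter. P, RBPMS KD1 and MBNL KD were all set against the same 3 D1 libraries, so these comparisons are not independent of each other.

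Between P and D1, 3 of the 8 tested genes rose beyond 2-fold (Des, Krt7 and Krt8), where 16.4% of all 16814 tested genes did, and none fell beyond 2-fold, against a background of 11.2%. Krt7 met the filter there with its counts in P, and with at least 10 counts asked of every library it was not tested and 2 genes rose beyond 2-fold. Without the fold limit, 5 rose (background 40.4%) and 2 fell (37.6%). In RBPMS KD1 no gene passed the fold limit in either direction, where the backgrounds were 3.06% higher and 1.62% lower. By adjusted p alone, 3 rose and 4 fell, beside 29.5% of all genes higher and 29.5% lower. In MBNL KD 1 gene rose beyond 2-fold (Des, background 6.10%) and 1 fell beyond it (Synm, 4.14%). By adjusted p alone 2 rose (33.8%) and 4 fell (33.7%), and the same counts without MBNL KD replicate 3 were again 2 genes beyond 2-fold. Set against each other, MBNL KD and RBPMS KD1 differed in 6 genes by adjusted p, 2 higher (35.1%) and 4 lower (34.5%) in MBNL KD, and in none beyond 2-fold (backgrounds 5.88% and 6.03%).

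The counts of 0 were the same with DESeq2 and with limma on the deposited normalised values. At an unadjusted p under 0.05 the edgeR test passed 7 of the 8 genes in P, 7 in RBPMS KD1, 6 in MBNL KD and 6 between the knockdowns, beside 78.9%, 62.5%, 69.7% and 71.2% of all tested genes. The median log2 fold change of the 8 genes was 0.40 in P, where that of all tested genes was 0.02. It was 0.02 in RBPMS KD1 beside 0.00 over all genes, and -0.22 in MBNL KD beside 0.01. Libraries of both groups did not overlap for 7 of the 8 genes in P, 7 in RBPMS KD1 and 6 in MBNL KD, beside 79.1%, 63.4% and 70.3% of all tested genes. The values for P include Krt7, which met the filter there with its counts in P. These counts are a description of 8 genes, whose own values follow.

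**Figure D1:**
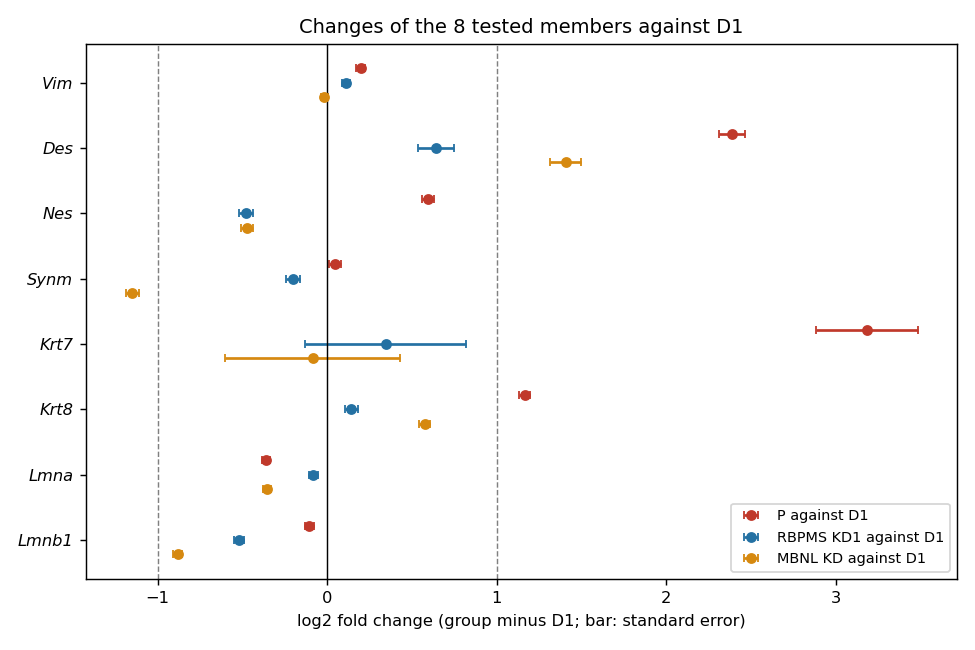
Log2 fold change against D1 (x axis) of the 8 tested intermediate filament genes (y axis) in P, RBPMS KD1 and MBNL KD. Points are edgeR estimates, bars are standard errors and dashed lines mark 2-fold. Des, Krt7 and Krt8 lie to the right of the upper line in P, and in MBNL KD Des lies to the right of it and Synm to the left of the lower line.

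Desmin separated the 4 groups. Its scaled counts were 227, 239 and 208 in D1, 1188, 1150 and 1211 in P, 366, 366 and 320 in RBPMS KD1, and 624, 601 and 562 in MBNL KD. No library of any group overlapped another group, and the order from low to high was D1, RBPMS KD1, MBNL KD and P. Against D1, Des rose by 2.39 ± 0.08 (log2 fold change ± SE, edgeR adjusted p 4.99e-24) in P, which is 5.24-fold. The rise was 1.41 ± 0.09 (edgeR adjusted p 4.71e-14) in MBNL KD, or 2.65-fold, and 1.45 when MBNL KD replicate 3 was left out. In RBPMS KD1 it was 0.64 ± 0.11 (edgeR adjusted p 6.09e-06), under 2-fold. MBNL KD stood above RBPMS KD1 by 0.76 ± 0.09 (edgeR adjusted p 4.25e-09).

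Desmin is a marker of differentiated muscle, and in these cells its level was highest where the smooth muscle markers were lowest. Myh11, the smooth muscle myosin heavy chain, had 4563 scaled counts in D1 and 573 in P, and Acta2, smooth muscle actin, had 446867 and 4104. In MBNL KD, where Des also rose, Myh11 was higher than in D1 at 6616 scaled counts and Acta2 was lower at 376115. Of the skeletal muscle markers, Myod1, the myogenic master regulator, had 64, 44 and 64 counts in MBNL KD and 0 in every D1 and RBPMS KD1 library. Myf5 stayed at or under 4 counts in every library and Myog had between 2 and 8 in MBNL KD, while Ckm, muscle creatine kinase, had 66 to 103 counts in D1 and 22 to 39 in MBNL KD. The summed skeletal markers ran from 69.3 to 108 scaled counts in D1 and from 90.0 to 100 in MBNL KD. They ran from 105 to 116 in P and from 18.2 to 33.1 in RBPMS KD1, where Des rose as well. Their part in the change of Des was not tested. RefSeq places a non-coding gene, LOC102550477, over Des. Its counts summed to 9 in D1, 19 in P, 19 in RBPMS KD1 and 22 in MBNL KD, small beside the 659 to 3749 summed counts of Des.

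Vimentin drew 0.344% of all counts in D1 and 0.443% in P. Its scaled counts were 309356, 317195 and 327529 in D1 and 356940, 366863 and 374467 in P, with no overlap. Vim rose in P by 0.20 ± 0.02 (edgeR adjusted p 9.83e-09), a step of 1.15-fold. Quantile normalization, which forces the same distribution on every library, gave 0.77 for the same difference, so its size depends on the scaling although its direction does not. RBPMS KD1, at 343855, 344887 and 341624, lay above all D1 libraries by 0.11 ± 0.02 (edgeR adjusted p 0.000284). On the deposited normalised values that difference was 0.05 and no longer passed (limma adjusted p 0.184, range over the 14 alternatives 7.32e-07 to 0.184). MBNL KD, at 320563, 312738 and 308619, overlapped D1 and differed from it by -0.02 ± 0.02 (edgeR adjusted p 0.467). With quantile normalization alone that difference passed, at -0.05 (edgeR adjusted p 0.00924, range over the alternatives 0.00924 to 0.978).

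**Figure D2:**
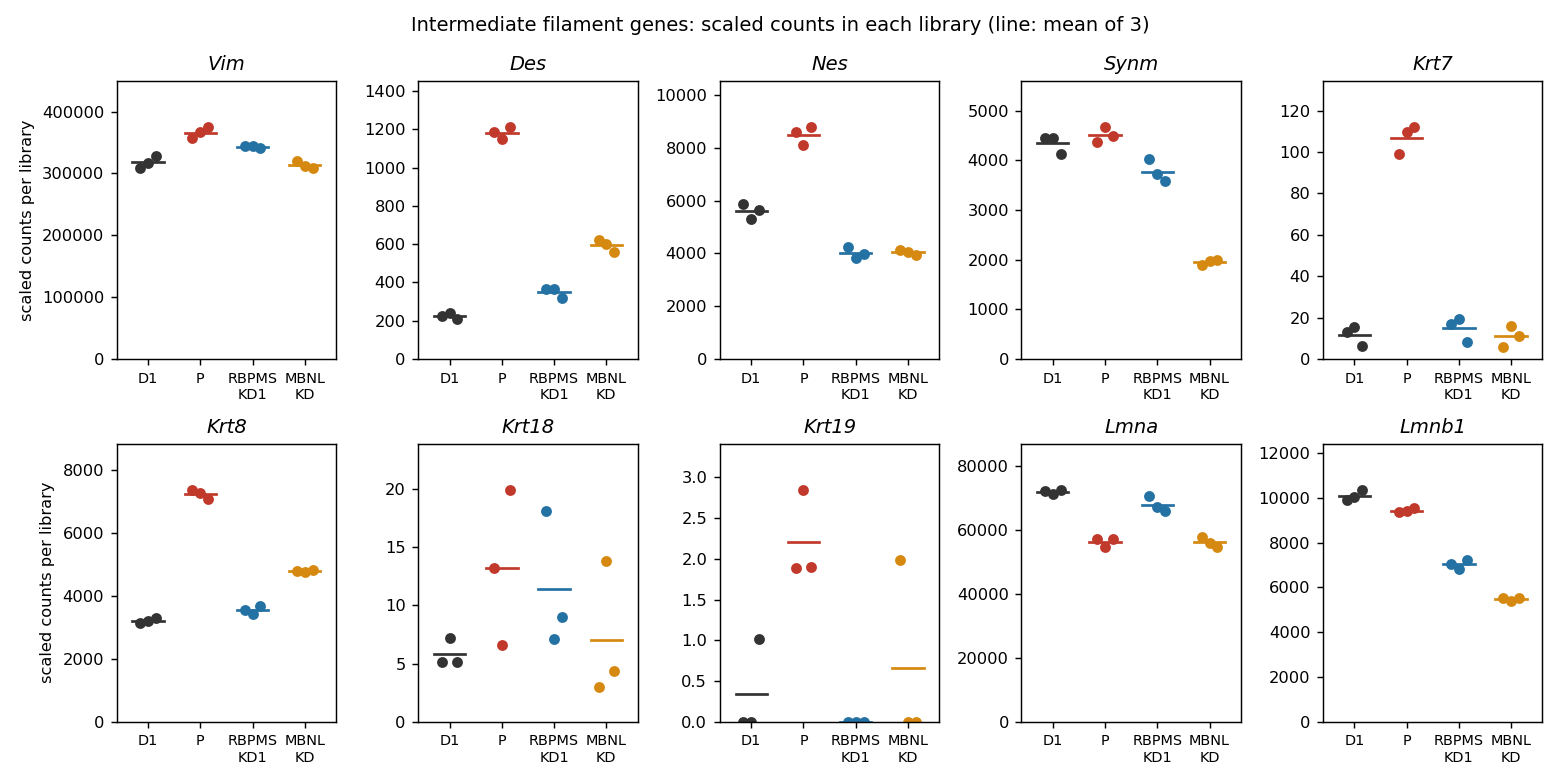
Scaled counts (y axis, linear, from 0) of the 10 intermediate filament genes in each of the 12 libraries, by group (x axis); points are libraries and lines are means of 3. Des rises stepwise from D1 through RBPMS KD1 and MBNL KD to P, Synm is lowest in MBNL KD, and Krt7 reaches 99.0 or more only in P.

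Nestin, a marker of progenitor cells, went one way in P and the other in both knockdowns. Its scaled counts were 5864, 5298 and 5645 in D1 and 8591, 8113 and 8776 in P. RBPMS KD1 held 4259, 3815 and 3985 and MBNL KD 4142, 4047 and 3932, so every knockdown library was below and every P library above D1. The rise in P was 0.60 ± 0.03 (edgeR adjusted p 3.86e-17), or 1.51-fold. The fall was -0.48 ± 0.04 in RBPMS KD1 (edgeR adjusted p 2.53e-11) and -0.47 ± 0.04 in MBNL KD (edgeR adjusted p 6.75e-13). Between the knockdowns the libraries overlapped and the difference was 0.00 ± 0.04 (edgeR adjusted p 0.95), an estimate whose sign changed with the scaling.

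Synemin, a linker of desmin and vimentin filaments to adhesion sites, stood apart in MBNL KD. Its scaled counts there were 1898, 1968 and 2001, against 4449, 4442 and 4129 in D1. RBPMS KD1 had 4027, 3716 and 3579 and P had 4361, 4664 and 4491. MBNL KD lay far below the other 9 libraries, RBPMS KD1 lay just under D1, and P overlapped D1. Synm fell by 1.15 on the log2 scale in MBNL KD (SE 0.04, edgeR adjusted p 7.25e-21), which is 2.22-fold, and by 1.17 without MBNL KD replicate 3. It fell by 0.20 in RBPMS KD1 (SE 0.04, edgeR adjusted p 0.000114), and in P the difference was 0.05 ± 0.04 (edgeR adjusted p 0.213). MBNL KD was below RBPMS KD1 by a log2 difference of -0.95 ± 0.04 (edgeR adjusted p 4.8e-18), just inside 2-fold. Leaving out RBPMS KD1 replicate 3 took it past 2-fold, at -1.01. Des and Synm, whose products assemble together, thus moved in opposite directions in both knockdowns, beyond 2-fold only in MBNL KD.

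Keratin 8, the type II keratin of simple epithelia, was present in every library. Its scaled counts were 3149, 3200 and 3304 in D1, 7369, 7287 and 7093 in P, 3545, 3441 and 3668 in RBPMS KD1 and 4792, 4748 and 4841 in MBNL KD. The groups did not overlap and took the same order as for Des. Krt8 rose by 1.17 ± 0.03 in P (edgeR adjusted p 6.03e-26), or 2.25-fold. It rose by 0.58 ± 0.03 in MBNL KD (edgeR adjusted p 1.78e-15) and by 0.14 ± 0.04 in RBPMS KD1 (edgeR adjusted p 0.00156). MBNL KD was above RBPMS KD1 by 0.43 ± 0.03 (edgeR adjusted p 2.58e-12).

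Keratin 7, the other type II keratin of simple and ductal epithelia, was scarce outside P. Its counts were 13, 15 and 6 in D1, 105, 116 and 118 in P, 17, 19 and 8 in RBPMS KD1, and 6, 16 and 10 in MBNL KD. All P libraries were above all others, which overlapped each other. Krt7 rose in P by 3.19 ± 0.30 (edgeR adjusted p 1.76e-11), or 9.11-fold. Only 2 of the 3 D1 libraries had over 10 counts, so the filter, which asked for 3 libraries, was met in this comparison with the counts of P. With no filter the difference was 3.19 ± 0.28 (edgeR adjusted p 4.45e-13). On the normalised values, whose smallest entry is 35, the difference was 1.35 (limma adjusted p 1.5e-05, range over the 13 alternatives 3.67e-20 to 1.5e-05). In RBPMS KD1 it was 0.35 ± 0.48 (edgeR adjusted p 0.554) and in MBNL KD -0.08 ± 0.52 (edgeR adjusted p 0.895). With so few counts, small differences of Krt7 were not detectable at this depth.

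The type I partners were hardly counted. Krt18, the usual partner of Krt8, had 5, 7 and 5 counts in D1, 14, 7 and 21 in P, 18, 7 and 9 in RBPMS KD1, and 3, 14 and 4 in MBNL KD. All groups overlapped D1, and the gene fell below the filter. With no filter its difference in P was 1.17 ± 0.62 (edgeR adjusted p 0.11). Between P and D1, leaving out 1 library brought it past the filter in 4 cases, each time only through its counts in P, so the values are no evidence of a direction. They were 1.49 ± 0.57 without P replicate 2 (edgeR adjusted p 0.0178) and 1.08, 1.35 and 1.08 without D1 replicates 1, 2 and 3 (edgeR adjusted p 0.119, 0.0633 and 0.123). Between the knockdowns it passed the filter in 4 such cases, at -0.94 to -0.31 (edgeR adjusted p 0.221 to 0.686). Krt19, the smallest type I keratin, had 0, 0 and 1 counts in D1, 2, 3 and 2 in P, none in RBPMS KD1, and 2, 0 and 0 in MBNL KD. Since every one of these values is at or under the floor of 3 counts, no fold is given. In D1 the count of Krt8 exceeded that of Krt18 by 9.14 ± 0.30 on the log2 scale, a ratio of counts that is not corrected for length, although keratin filaments need both chains. Keratin 8 and 18 genes have near-identical processed copies in mammalian genomes. How reads matching several places were counted is not given in the sources used here, so both counts are uncertain.

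Few epithelial markers were detected beside the keratins. Of 7 (Epcam, Cdh1, Cldn4, Cldn7, Esrp1, Grhl2 and Ovol2), 1 was above the floor in D1 and 4 were in P. Epcam and Cdh1 had no count in D1, and in P they had 6 to 8 and 8 to 12 counts. Grhl2, an epithelial transcription factor, was the only one tested, with 1049 scaled counts in D1 and 409.5 in P, a fall of 1.36 on the log2 scale (edgeR adjusted p 2.82e-18). In MBNL KD it rose to 1572 scaled counts (0.59 ± 0.06, edgeR adjusted p 1.24e-10), and in RBPMS KD1, at 994 scaled counts, the log2 fold change was -0.08 ± 0.06 (edgeR adjusted p 0.292). Grhl2 thus went against Krt8 in P and with it in MBNL KD. Of the markers of mesothelium, a lining that expresses simple keratins, Msln had 14699 and Upk3b 9053 scaled counts in D1, while Wt1 had at most 2 counts in D1, 4 to 6 in P and none in the knockdowns. The fourth of them, Lrrn4, had 28, 11 and 13 counts in D1 and 227, 289 and 346 in P. It rose there beside Krt7 and Krt8, by 3.93 ± 0.24 (edgeR adjusted p 2.82e-16), and did not pass the test in RBPMS KD1 (0.75 ± 0.41, edgeR adjusted p 0.119) or MBNL KD (-0.05 ± 0.50, edgeR adjusted p 0.94). Msln rose in P by 0.22 (edgeR adjusted p 2.15e-09) and in MBNL KD by 0.25 (edgeR adjusted p 9.89e-10). Upk3b fell by 0.91 in P and by 1.33 in MBNL KD (edgeR adjusted p 1.58e-24 and 7.43e-25). In RBPMS KD1 Msln rose by 0.21 and Upk3b by 0.66 (edgeR adjusted p 1.04e-07 and 1.93e-18). The summed mesothelial markers, nearly all Msln and Upk3b, ran from 23329 to 24031 scaled counts in D1, 22192 to 22458 in P, 30915 to 31671 in RBPMS KD1 and 20822 to 21500 in MBNL KD. Their part in the changes of the keratins was not tested.

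Lamin B1, the farnesylated lamin that stays at the nuclear membrane, was lowest in MBNL KD. Its scaled counts were 9924, 10026 and 10353 in D1, 9353, 9415 and 9531 in P, 7039, 6839 and 7247 in RBPMS KD1 and 5527, 5377 and 5527 in MBNL KD. The groups formed separate bands in that order from high to low. Lmnb1 fell by 0.88 on the log2 scale in MBNL KD (SE 0.03, edgeR adjusted p 2.29e-22) and by 0.52 in RBPMS KD1 (SE 0.03, edgeR adjusted p 5.29e-15). In P the log2 fold change was -0.10 ± 0.03 (edgeR adjusted p 0.000795). MBNL KD was below RBPMS KD1 by a log2 difference of -0.37 ± 0.03 (edgeR adjusted p 4.64e-12). None of these differences reached 2-fold.

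Lamins A and C come from Lmna by alternative splicing, and the gene count joins them. Scaled counts were 72051, 71070 and 72414 in D1, 56993, 54682 and 57080 in P, 70661, 67247 and 65731 in RBPMS KD1 and 57891, 55967 and 54695 in MBNL KD. P and MBNL KD overlapped each other far below D1, and RBPMS KD1 lay just under D1. The log2 fold change was -0.36 ± 0.02 in P (edgeR adjusted p 2.51e-15) and -0.35 ± 0.02 in MBNL KD (edgeR adjusted p 1.46e-13). With quantile normalization the difference in P shrank to -0.07. In RBPMS KD1 it was -0.08 ± 0.03 (edgeR adjusted p 0.0101). That last difference no longer passed without RBPMS KD1 replicate 3 (-0.06, edgeR adjusted p 0.0775) or on the normalised values (-0.06, limma adjusted p 0.0613), over a range of 0.000506 to 0.0775.

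Genes of dividing cells were followed beside the lamins. Of 6 proliferation markers, 5 fell in RBPMS KD1 (where 29.5% of all tested genes did) and 6 in MBNL KD (33.7%), while 4 rose (40.4%) and none fell (37.6%) in P. Mki67, the proliferation antigen, stood at 143% of its D1 mean in P, but at 73.5% in RBPMS KD1 and 53.1% in MBNL KD. The summed markers ran from 71874 to 73801 scaled counts in D1, 88244 to 91211 in P, 58626 to 60884 in RBPMS KD1 and 45357 to 45913 in MBNL KD. Their part in the changes of the lamins was not tested. These are mRNA counts. By the study's EdU assay of DNA synthesis, proliferation was higher in PAC1-P and after RBPMS knockdown, and unaffected by MBNL knockdown. Lmnb2, the second B-type lamin, also fell in each group. Its log2 fold change was -1.38 ± 0.04 in MBNL KD (edgeR adjusted p 4.26e-23), -0.53 ± 0.04 after the loss of RBPMS (edgeR adjusted p 4e-13) and -0.29 ± 0.03 for P (edgeR adjusted p 8.2e-10).

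**Figure D3:**
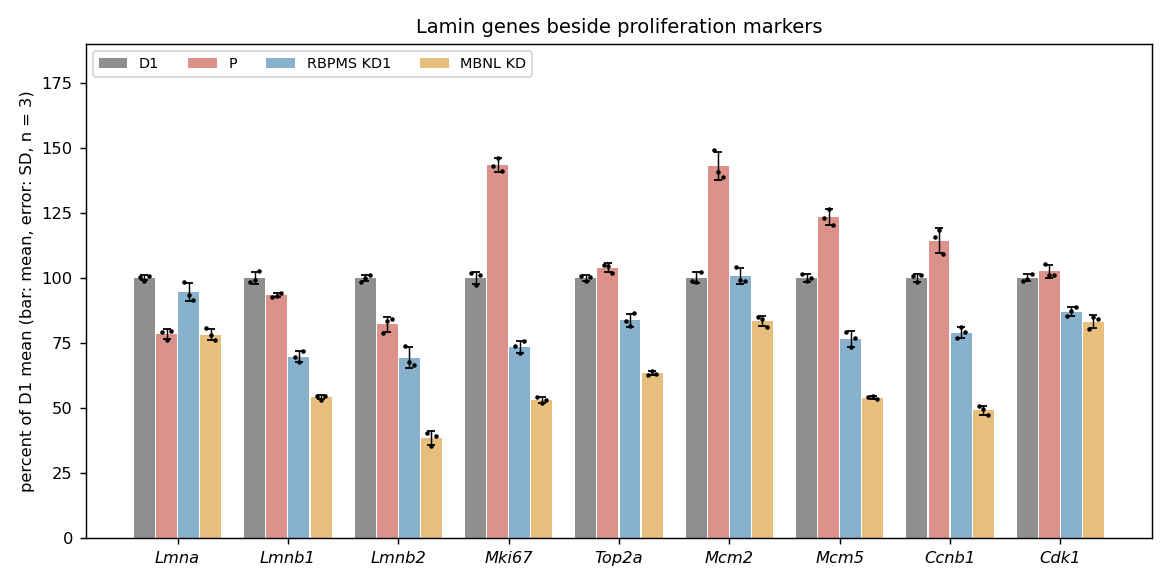
Scaled counts of 3 lamin genes and 6 proliferation markers as a percent of the D1 mean (y axis, from 0) in the 4 groups; bars are means, error bars SD and dots the 3 libraries. Lmnb1, Lmnb2 and Mki67 step down from D1 to RBPMS KD1 to MBNL KD, whereas in P Mki67 is at 143% and the lamins are below 100%.

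The mRNA counts of 2 genes were also set against each other as a ratio within each library, which needs no scaling between libraries. These ratios are not corrected for transcript length, and no protein was measured. With 3 libraries against 3 the two-sided exact permutation test cannot go below p = 0.1, so none of the 21 ratio tests could pass, and the smallest adjusted p was 0.162. The log2 ratio of Des to Vim was -10.47 ± 0.13 in D1, -8.27 ± 0.04 in P, -9.94 ± 0.11 in RBPMS KD1 and -9.04 ± 0.05 in MBNL KD, with no overlap of any group with D1. On the normalised values the difference from D1 was 1.34 in P, in place of 2.19. The Des count thus stayed below 1% of the Vim count throughout, from 0.0706% in D1 to 0.323% in P. Synm to Des went from 4.27 ± 0.05 in D1 to 1.93 ± 0.08 in P and 1.72 ± 0.11 in MBNL KD, against 3.43 ± 0.08 in RBPMS KD1. In P, Des alone of the pair passed the edgeR test, whereas in both knockdowns both genes did, in opposite directions. In RBPMS KD1 neither changed beyond 2-fold.

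Nes to Vim was higher than in D1 by 0.40 in P and lower by -0.59 in RBPMS KD1 and -0.45 in MBNL KD, with no overlap (exact p 0.1 each). Lmnb1 to Lmna differed from D1 by 0.25 in P, -0.44 in RBPMS KD1 and -0.53 in MBNL KD, again without overlap (exact p 0.1 each). For P, both of these depended on the values used, and on the normalised ones they were -0.03 for Nes to Vim and -0.00 for Lmnb1 to Lmna. Krt7 to Krt8 differed by 2.14 in P without overlap (exact p 0.1), and by 0.20 on the normalised values. In the knockdowns that ratio overlapped D1, as Krt8 to Krt18 and Krt19 to Krt18 did in every group.

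**Figure D4:**
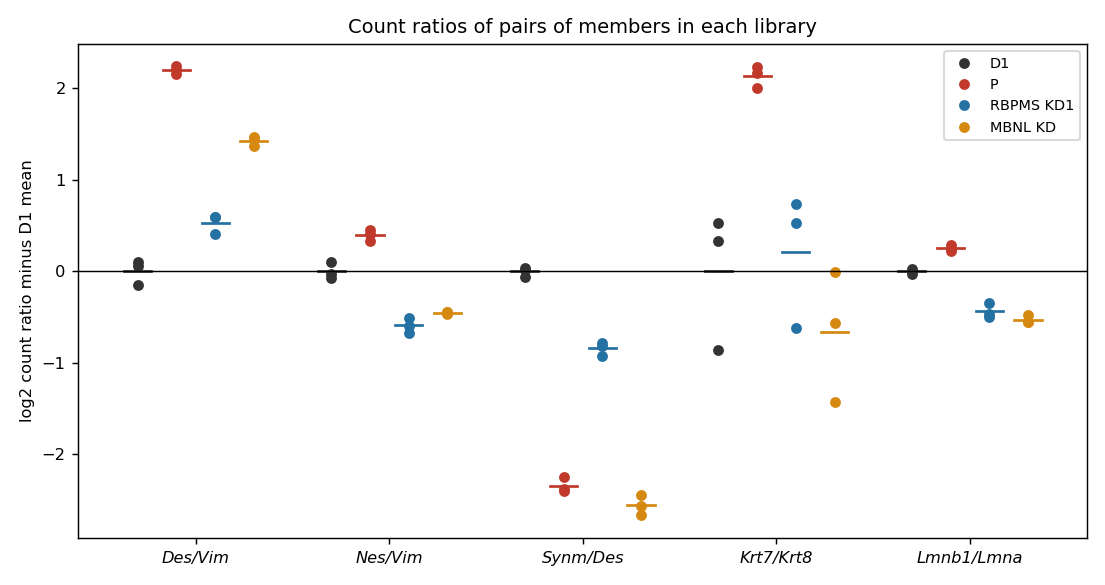
Log2 count ratio of 5 pairs of genes in each library, less the D1 mean of that pair (y axis), by pair (x axis) and group; points are libraries and lines means of 3. Des/Vim is above and Synm/Des below D1 in all 3 other groups, and Krt7/Krt8 scatters over more than 1 unit outside P.

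The rest of the intermediate filament family was mostly silent. Of 41 other genes, 38 were in the count table and 8, 6 and 8 of them could be tested in P, RBPMS KD1 and MBNL KD. Nefh, the heavy neurofilament chain, and Krt15, a type I keratin, passed the filter in P only through their counts in P, and Gfap, the astrocyte filament protein, and Krt15 passed in MBNL KD only through theirs, so that the filter itself set their direction there. The 6 genes tested in all 3 comparisons, a restriction made after the values were seen, held 3 that rose and 2 that fell in P (beside 40.4% and 37.6% of all tested genes), 2 and 1 in RBPMS KD1 (29.5% each), and 2 and 2 in MBNL KD (33.8% and 33.7%). Beyond 2-fold, 2 of the 6 were higher (beside 16.4% of all tested genes) and 1 was lower (11.2%) in P, 1 was higher (3.06%) and none lower (1.62%) in RBPMS KD1, and 1 was higher (6.10%) and 1 lower (4.14%) in MBNL KD. Krt80, a type II keratin, rose in P from 469 to 1691 scaled counts (1.85 ± 0.06, edgeR adjusted p 5.71e-23). Prph, the peripheral nerve filament peripherin, rose from 52.9 to 183 (1.78 ± 0.18, edgeR adjusted p 1.16e-10). Sync, the muscle protein syncoilin that binds desmin, fell from 6978 to 3213 (-1.12 ± 0.03, edgeR adjusted p 2.81e-25). In MBNL KD the named genes were Lmnb2, described above, and Krt10, which rose from 376 to 799 scaled counts (1.09 ± 0.09, edgeR adjusted p 2.57e-12). In RBPMS KD1 the only one beyond 2-fold was Bfsp1, a lens filament gene at under 100 scaled counts, named here after its value was seen (1.46 ± 0.28, edgeR adjusted p 5.33e-05).

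Genes for proteins that tie cytoplasmic filaments to junctions, adhesions and chaperones moved in both directions. Of 20 such genes, 18 were tested in all 3 comparisons with D1, and the counts here are of those. In P 8 rose (40.4% of all tested genes) and 8 fell (37.6%). Beyond 2-fold 4 were higher and 5 lower, against backgrounds of 16.4% and 11.2%, and the median log2 fold change was -0.12. Evpl, the cornified envelope protein envoplakin, is not among the 18 and owed its place in the test in P to its counts there, which were 190, 202 and 222 against 16, 26 and 10 in D1. Dsp, desmoplakin, which anchors keratin or desmin at desmosomes, rose by 2.99 ± 0.08 (edgeR adjusted p 3.59e-26), and Pkp1, the desmosomal protein plakophilin 1, by 2.61 ± 0.03 (edgeR adjusted p 1.66e-36). Jup, the junction protein plakoglobin, named after its value was seen, fell by 2.46 (edgeR adjusted p 4.1e-37). Fam83h, which binds keratin and casein kinase, fell by 2.76 (edgeR adjusted p 3.26e-21). In RBPMS KD1 5 rose and 9 fell (29.5% each over all genes) with none beyond 2-fold (3.06% and 1.62%). In MBNL KD 7 rose (33.8%) and 6 fell (33.7%). Beyond 2-fold 1 was higher (6.10%) and none lower (4.14%), and that gene was Pkp2, plakophilin 2. Its scaled counts were 177, 192 and 208 in D1 and 1132, 1242 and 1100 in MBNL KD, a rise of 2.59 ± 0.08 (edgeR adjusted p 9.2e-22).

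All 19 genes for lamin processing and for partners of the lamina were tested. In P 8 rose and 6 fell, where 40.4% and 37.6% of all tested genes did. In RBPMS KD1 6 rose and 10 fell (29.5% each), and in MBNL KD 3 rose (33.8%) and 13 fell (33.7%). The median log2 fold changes were 0.03, -0.09 and -0.17. Beyond 2-fold, 2 were higher (16.4%) and 2 lower (11.2%) in P, and none in either knockdown, where the backgrounds were 3.06% and 1.62% in RBPMS KD1 and 6.10% and 4.14% in MBNL KD. In P the nesprin genes, whose products couple the nucleus to the cytoskeleton, moved apart, with Syne1 at -2.11 ± 0.03 (edgeR adjusted p 4.48e-35), Syne3 at 1.80 ± 0.04 (edgeR adjusted p 2.71e-27) and Syne2 at 1.08 ± 0.03 (edgeR adjusted p 2.73e-27). Emd, the lamin-binding protein emerin, was at -1.33 ± 0.04 (edgeR adjusted p 5.34e-26).

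**Figure D5:**
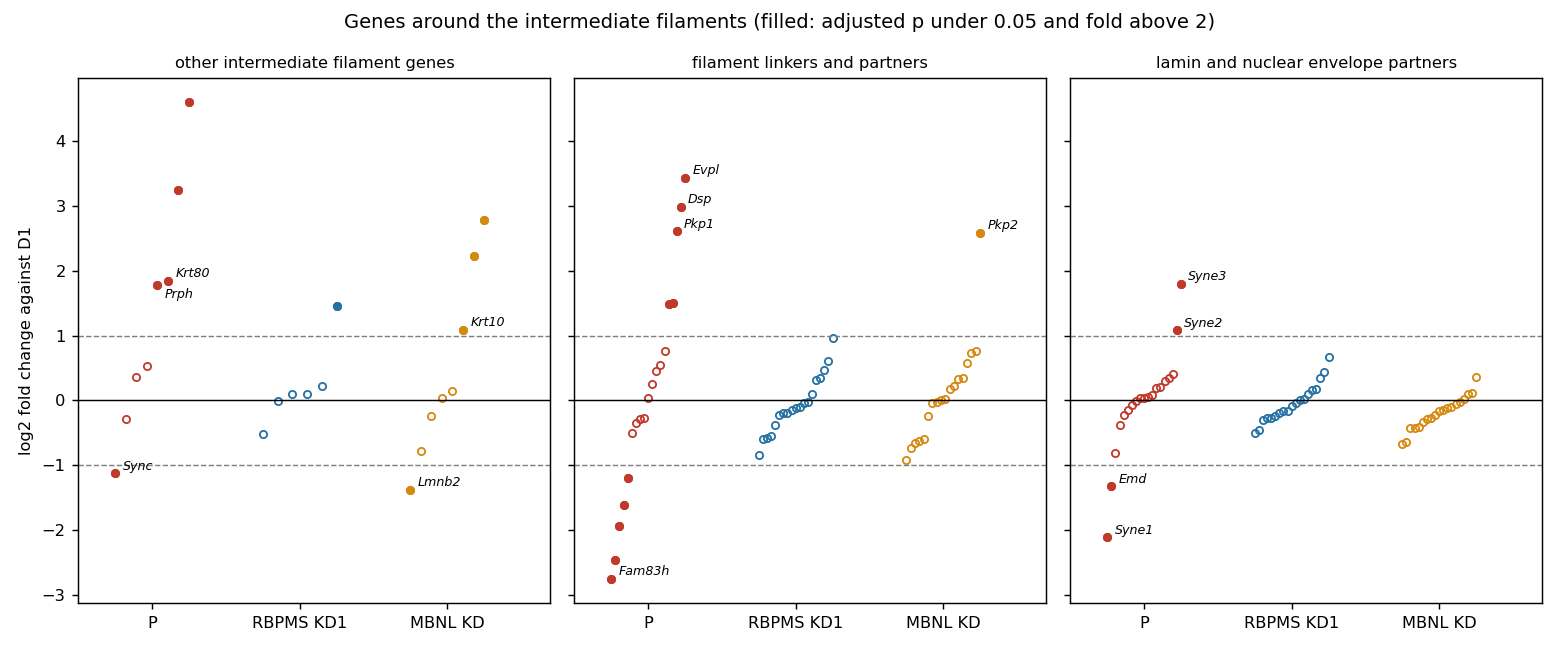
Log2 fold change against D1 (y axis) of the tested genes of 3 lists (panels), by group (x axis); each point is 1 gene, filled where adjusted p was under 0.05 and the fold above 2, and dashed lines mark 2-fold. Nefh, Krt15 and Evpl in P and Gfap and Krt15 in MBNL KD are drawn although they passed the filter through those groups. P holds more filled points than either knockdown in each panel, as it does over all tested genes, of which 16.4% were higher and 11.2% lower beyond 2-fold in P, 3.06% and 1.62% in RBPMS KD1, and 6.10% and 4.14% in MBNL KD.

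Some neighbours of the 10 genes in the RefSeq gene order moved with them and others did not. Of all tested genes, 40.4% rose and 37.6% fell in P. The shares were 29.5% each in RBPMS KD1, and 33.8% and 33.7% in MBNL KD, so a shared direction is common. Dnpep, a peptidase gene on one side of Des, rose with it in P by 0.64 (edgeR adjusted p 5.3e-21) and in RBPMS KD1 by 0.11 (edgeR adjusted p 0.00103), and in MBNL KD its log2 fold change was -0.01 (edgeR adjusted p 0.794). On the other side Speg, a muscle kinase gene, fell by 2.41 in P, where Des rose (edgeR adjusted p 2.38e-30), and rose by 1.06 in MBNL KD, where Des rose as well (edgeR adjusted p 9.83e-24). In RBPMS KD1, where Des rose, Speg fell by 0.29 (edgeR adjusted p 7.75e-08). Krt80 lies next to Krt7 and rose with it in P, but fell by 0.78 in MBNL KD (edgeR adjusted p 5.72e-08). Krt15, next to Krt19, was described above. Eif4b, next to Krt18, rose by 0.15 in RBPMS KD1 and fell by 0.29 in MBNL KD (edgeR adjusted p 9.59e-06 and 2.08e-11). Crabp2, a retinoic acid binding protein gene next to Nes, rose with it in P, by 4.38 (edgeR adjusted p 2.43e-29). Where Nes fell, Crabp2 did not pass, at 0.42 in RBPMS KD1 and -0.06 in MBNL KD (edgeR adjusted p 0.0614 and 0.824). Ttc23, next to Synm, fell with it in MBNL KD by 0.31 (edgeR adjusted p 5.78e-06) but did not pass in RBPMS KD1 (-0.10, edgeR adjusted p 0.104). On the sides of Vim, St8sia6 fell by 2.26 in P, where Vim rose, and rose by 0.95 in MBNL KD (edgeR adjusted p 2.3e-06 and 0.000149), and Trdmt1 fell by 0.16 in MBNL KD (edgeR adjusted p 0.024). In P both neighbours of Lmna fell with it, Sema4a by 0.80 and Mex3a by 1.18 (edgeR adjusted p 7.12e-07 and 4.51e-21). Mex3a also fell in MBNL KD by 0.26 (edgeR adjusted p 8.4e-07). Sema4a did not pass in RBPMS KD1 (-0.01, edgeR adjusted p 0.924) or MBNL KD (-0.13, edgeR adjusted p 0.287). Mex3a fell by 1.33 in RBPMS KD1 (edgeR adjusted p 1.11e-19), where Lmna differed by -0.08. Marchf3, next to Lmnb1, rose by 0.94 in RBPMS KD1 and 0.77 in MBNL KD while Lmnb1 fell (edgeR adjusted p 3.84e-14 and 8.28e-13), and fell with it in P by 0.41 (edgeR adjusted p 1.37e-06). Bcan, Krt78 and Krt9 had under 15 scaled counts in each group, and 3 further neighbours were not in the count table.

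Likeness of pattern was measured as the distance between the 3 log2 fold changes against D1 of a gene and of each of 12522 genes with at least 100 scaled counts on average. Des had 9 genes within a distance of 0.5, the nearest being Atoh8 (0.13), Zfp469 (0.36) and Osmr (0.37). Krt7 had 19, led by LOC120098564, Trim66 and RGD1560314, and Krt8 had 173, led by LOC100302372, Crcp and Lactb. Synm had 267, with Crtc2 (0.04), Wnt5a (0.07) and Zbtb20 (0.08) nearest. Lmnb1 had 336, with Ticrr, Uhrf1 and Atrx nearest, and Nes had 520, with LOC100362738, Trrap and Dscc1. Lmna had 2397 (Zfp653, LOC102554879 and Lysmd3) and Vim 3776 (Hps5, Naa35 and Polrmt). Genes with fold changes near 0 had many others within that distance and genes with large ones had few. The counts thus in part reflect the size of the changes. For Krt7 the standard errors were 0.30 in P, 0.48 in RBPMS KD1 and 0.52 in MBNL KD, beside the distance of 0.5. The 3 fold changes share their D1 libraries.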

How the data were processed

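PAC1 cells were sequenced as poly(A)-selected, directional libraries, 3 in each of 4 groups. The authors subsampled reads to a common depth, used STAR 2.7.11b for alignment to mRatBN7.2 and featureCounts with the RefSeq annotation for counting, and deposited the raw counts per gene that were used here. The strand setting and the treatment of reads that match several places are not given in the sources used here. The authors also deposited a normalised table of 19812 genes, a signal that they made from the counts by noise correction and quantile normalization, and it was used only as an alternative. Libraries held 80842635 to 90771289 counts. Of the counts from 1 to 20 in a library, 67.3% to 70.3% were even, and 2 was more frequent than 1 in each library, as it would be if both reads of a pair were counted. A count is therefore not taken as an independent fragment, and the floor of 3 counts is a working threshold and not a limit of detection.

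Groups came from the labels. Replicate numbers name libraries, and the p-values measure the spread between these libraries, which may in part be technical. Each comparison was fitted on its own 6 libraries with edgeR 4.0.16 (TMM, filterByExpr, glmQLFit and glmQLFTest) and Benjamini-Hochberg adjustment over all genes tested. Alternatives used DESeq2 1.42.0, limma 3.58.1 (log2 of the normalised values, pseudocount 1), other scalings and filters, all 12 libraries, a replicate block and each library left out. Ratios of pairs were compared by exact permutation tests in scipy 1.17.1. For Krt19 to Krt18, which held counts of 0, 1 was first added to each count. The scripts were tested on simulated data. The 10 members and all gene lists were chosen with earlier results of these data known. Besides the members, genes were named when past both thresholds with a mean of 100 or more scaled counts in the group with more, at most 4 for each list and comparison, plus the 3 nearest in pattern and the neighbours of each member. All 10 members were matched to RefSeq's GRCr8 gene table, from which names, gene order and overlaps of genes were taken. The promoter sequences and their coordinates are also from GRCr8, while the counts were made on mRatBN7.2. Markers of endothelium were also summed and are given at the end, and 1 further marker list is not reported here.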

Additional observations from a re-analysis of the deposited data

How the results depend on the processing

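The 8 tested genes mostly kept their direction and their side of adjusted p 0.05. Of their log2 fold changes recomputed under the settings that kept all libraries, 246 did so, 2 no longer passed, 1 newly passed and 3 changed sign. Nes between MBNL KD and RBPMS KD1, near 0 throughout, changed sign with the DESeq2 size factors (-0.002014), with no filter (-0.002115) and with DESeq2 (-0.002094). Dropping the fold limit raised the count of changed intermediate filament genes to 7 in P, 7 in RBPMS KD1, 6 in MBNL KD and 6 between the knockdowns. On the normalised values the difference from D1 in the log2 ratio was 1.34 in P and 1.202 in MBNL KD for Des to Vim, and -0.03243, -0.495 and -0.3219 in P, RBPMS KD1 and MBNL KD for Nes to Vim. It was -1.92, -0.6385 and -2.19 in these groups for Synm to Des. For Krt8 to Krt18 it was 1.012 in P and -0.02234 in RBPMS KD1, for Krt7 to Krt8 0.1992 and -0.081 in those groups, and for Lmnb1 to Lmna -0.001646 in P and -0.5841 in MBNL KD. That table has no value under 35, and the cause of the shifts was not tested.

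Leaving out 1 library at a time gave ranges that crossed 0 for Vim (-0.04526 to 0.000783) and Krt7 (-0.463 to 0.2132) in MBNL KD and for Nes between the knockdowns (-0.04937 to 0.03772). Among the ratios it did so for Krt8 to Krt18 in P (-0.3346 to 0.478) and Krt7 to Krt8 in RBPMS KD1 (-0.2123 to 0.633). It also did so for Krt19 to Krt18 in P (-0.2082 to 0.729) and MBNL KD (-0.7244 to 1.021). In that pair 1 was added to each count, so its values depend heavily on the added count. The count of intermediate filament genes changed ran from 0 to 1 between the knockdowns and from 3 to 4 in P. Without P replicate 2, Krt18 was counted in P, having passed the filter only through its counts in P. Over all genes, changed genes numbered 4641 in P and 2933 with at least 10 counts in every library. On the normalised values they numbered 206 instead of 745 in RBPMS KD1, 783 instead of 1643 in MBNL KD and 1037 instead of 1920 between the knockdowns. Without the fold limit they numbered 13103, 9393, 10833 and 11202. Quantile normalization moved the share of changed genes that were higher from 59.4% to 45.8% in P, from 65.4% to 54.3% in RBPMS KD1 and from 59.6% to 50.6% in MBNL KD.

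The groups share replicate numbers, which nothing describes as pairs. With a replicate block 3 genes changed in P, 0 in RBPMS KD1, 2 in MBNL KD and 0 between the knockdowns, as without it, and all genes changed numbered 4593, 730, 1634 and 1915. The block changed no other call, and it leaves a mean difference of ratios as it is. Same-numbered libraries deviated together with correlations of -0.05 to 0.032 over 12647 genes in the comparisons with D1, and of 0.016 to 0.084 between the knockdowns, where alone every library correlated best with its own number.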

Other observations

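The 5 markers of endothelium (Pecam1, Cdh5, Kdr, Tek and Tie1) summed to between 25.8 and 30.6 scaled counts in D1 and 407 to 498 in P, with 66.8 to 70.6 in RBPMS KD1 and 30.7 to 54.4 in MBNL KD. Tek, the angiopoietin receptor, made up most of the sum in D1 at 23.9 scaled counts, with 315 in P (3.71 ± 0.18, edgeR adjusted p 6.4e-19), 59.8 in RBPMS KD1 (1.32 ± 0.29, edgeR adjusted p 0.000225) and 34.2 in MBNL KD (0.52 ± 0.33, edgeR adjusted p 0.164). Cdh5, VE-cadherin, had no count outside P, where it had 122 scaled counts and so passed the filter only there. At under 100 scaled counts, and named after their values were seen, Nefh had 2, 6 and 0 counts in D1 and 56, 96 and 68 in P, Gfap had 4, 8 and 0 in D1 and 28, 18 and 12 in MBNL KD, and Krt15 had 10, 0 and 0 in D1, 34, 34 and 38 in P and 35, 27 and 10 in MBNL KD. Each passed the filter there only through the group where it was higher, so no test is given.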
